A study of Mus musculus with 2 samples.

Results

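The cells described here were border macrophages, with very few monocytes, in single-cell RNA data from mouse hippocampus. They were chosen by their measured UMIs (unique molecular identifiers, each counting 1 captured RNA molecule): at least 0.3% and at least 3 UMIs of Mrc1, Pf4, Cd163, F13a1, Ms4a7, Lyve1, Cbr2, Ccr2 and Plac8 together, under 0.7% of 5 endothelial genes, and under 2 UMIs of the microglial genes P2ry12, Tmem119 and Sall1. Of 24906 kept cell barcodes, 257 met this rule. These members were 124 of 13271 barcodes in the NeuroD1 and 133 of 11635 in the GFP library. Both groups were 5xFAD mice, whose transgenes lead to amyloid plaques, and both were injected with AAV9 vectors that use the GFAP promoter, a driver of expression chiefly in astrocytes. The NeuroD1 group received AAV9-GFAP::NeuroD1-P2A-GFP, which carries a proneural transcription factor with GFP, and the control group received AAV9-GFAP::GFP. Tissue was taken 3 weeks after injection from 3 mice per group, the labels record a time of 6 months for both groups, and how the mice were pooled is not stated. Each group was 1 library, so no test between groups was possible, and every 95% interval below covers counting error only.

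Border macrophages live at the edges of the brain, in the meninges, the choroid plexus and the spaces around vessels. They clear material by scavenger and lectin receptors such as CD163, LYVE1 and the mannose receptor MRC1, and a part of them presents antigen on MHC class II. Monocytes enter from blood, carry the chemokine receptor CCR2, and can become macrophages in tissue. Microglia, the macrophages of the brain tissue itself, serve here as the comparison. They were 1284 and 2650 barcodes chosen by 8 homeostatic microglial genes, so plaque-associated microglia low in those genes may be left out.

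Members held 305452 (NeuroD1) and 168438 (GFP) UMIs, with medians of 2256 and 1108 UMIs and 1048 and 612 genes per member. A count of 3 UMIs therefore corresponded to 9.82 and 17.8 CPM, which are UMIs scaled to 1000000 over the summed members. Sex-linked RNA differed as well: in members, Xist had 0 and 22 UMIs and the Y-linked Ddx3y 26 and 0. Treatment, animals, sex-linked RNA and depth cannot be told apart in any comparison between the libraries. Vector GFP had 1 UMI in NeuroD1 members and 28 in 8 GFP members, and the vector feature ND1 had 0 in both. The libraries shared 98 kept barcodes, and 1 NeuroD1 member's barcode was among the kept GFP barcodes.

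Members made up 0.934% (0.778 to 1.11%) of kept barcodes in the NeuroD1 library and 1.14% (0.958 to 1.35%) in the GFP library, a ratio of 0.817 (0.635 to 1.05). The interval of this ratio includes 1, so the main rule alone did not show a difference in share. That rule was applied at unequal depth. With the rule applied to 500 UMIs per barcode, 106 NeuroD1 and 131 GFP members were left and the ratio was 0.709, for which no interval is given here. Over the alternatives that recomputed it, the ratio ran from 0.419 to 0.896 and so stayed below 1. A stricter exclusion, under 2 UMIs of Siglech, Gpr34, Olfml3, Fcrls and P2ry13, left 33 and 69 members and a ratio of 0.419. This cut also counts UMIs at unequal depth, and it removed 91 of 124 NeuroD1 and 64 of 133 GFP members. What depth does to the value of 0.419 was not tested. Fcrls, an Fc receptor-like gene listed among microglial markers, had UMIs in 102 and 91 members, and without it 35 and 8 members reached 2 UMIs of the rest. Between 0.3% and 0.4% of marker UMIs, just inside the threshold, lay 4 and 8 barcodes, and between 0.2% and 0.3%, just outside, lay 6 and 10. In the same order, these barcodes held Lyz2, the macrophage lysozyme, at 5226 and 6728 CPM inside and 13246 and 6259 CPM outside. Cd74, of MHC class II, was at 28627 and 16907 CPM inside and 73721 and 7792 CPM outside, so in the NeuroD1 library the threshold left out cells rich in class II RNA. What this does to the class II values below was not tested.

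Monocyte genes were scarce in the members. The rule could select macrophages or monocytes, and the next counts describe which of its own genes did so, without testing the label. At least 2 UMIs of Mrc1, Pf4, Cd163, Lyve1 and Cbr2, with under 2 of Ccr2 and Plac8, were found in 117 NeuroD1 members (94.4%, 88.7 to 97.7%) and 130 GFP members (97.7%, 93.5 to 99.5%). The opposite pattern was found in 2 and 1 members. Ccr2 had 9 UMIs in 3 NeuroD1 members and 1 UMI in 1 GFP member. Plac8, a gene high in blood monocytes, had 12 and 4 UMIs, all in 1 member of each library. Ly6c2, the marker of classical monocytes, had 0 UMIs in NeuroD1 members and 28 in a single GFP member, and Chil3 had 0 in both. Of 31 further monocyte genes, 23 did not reach 20 UMIs over both libraries, and those that did included Lyz2 and Ifitm3, which macrophages also express.

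The genes that chose the members were detected as follows, which describes the choice and supports nothing. Mrc1 was at 2164 and 2571 CPM in NeuroD1 and GFP members, in 91.9% and 89.5% of them against 1.95% and 0.642% of microglia. Pf4, a chemokine first known from platelets, was at 3483 and 4625 CPM, while 8 and 9 of 10 other platelet genes listed were at 0. Ms4a7 was at 1918 and 2149 CPM, and Cd163, the haemoglobin-haptoglobin receptor, at 887 and 653 CPM. F13a1, the coagulation factor XIII A chain, was at 1440 and 1015 CPM, Cbr2 at 884 and 730 CPM, and Lyve1, a hyaluronan receptor, at 360 and 558 CPM. None of these 7 genes differed between the libraries by 2-fold, though Lyve1 did under the stricter exclusion of microglia, at a log2 ratio of -1.83.

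Genes outside the rule gave the same cells a fuller outline. The 20 genes most concentrated in members over all other barcodes included 6 of the rule and 14 others, led by lectins. Clec10a and Mgl2, galactose-type lectins, were at 357 and 540 CPM and at 881 and 564 CPM in NeuroD1 and GFP members, and at or below 1.02 CPM in microglia of either library. Cd209f, of the DC-SIGN lectin family, was at 773 and 1419 CPM, and its relatives Cd209a at 943 and 1466 CPM, Cd209g at 190 and 398 CPM and Cd209b at 216 and 742 CPM. Each of these family members had higher CPM in the GFP library, and in every alternative run, and Cd209b and Cd209g were past 2-fold. Cd209f and Cd209a lay under 2-fold, at log2 ratios of -0.88 and -0.64, but passed it in some alternatives, where they reached -1.08 and -1.95. Cd209g was at -0.93 under the stricter exclusion. Cd209b had UMIs in 15 NeuroD1 and 32 GFP members, was 3.43-fold lower in the NeuroD1 library (2.53 to 4.7), and 10 members held 90.9% and 65.6% of its UMIs. Near-identical stretches among Cd209 genes could share reads, so values of single members of that family are uncertain.

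Other identity genes had similar levels in both libraries. Folr2, a folate receptor that marks tissue-resident macrophages, was at 363 CPM (299 to 438) and 356 CPM (272 to 459). Clec4n, which encodes dectin-2, was at 488 and 439 CPM, Ms4a4a at 229 and 232 CPM, and Clec4a1 at 206 and 226 CPM. Pla2g2d, a secreted phospholipase, was at 124 and 172 CPM, Fcna, a ficolin, at 223 and 267 CPM, and the eosinophil-attracting chemokine Ccl24 at 291 and 273 CPM. Cd36, a receptor for oxidised lipids, was at 288 and 374 CPM, and had 0 UMIs in NeuroD1 microglia. The points of members and microglia stand far apart for every one of these genes, and the 2 libraries' members stand close together.

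**Figure D1:**
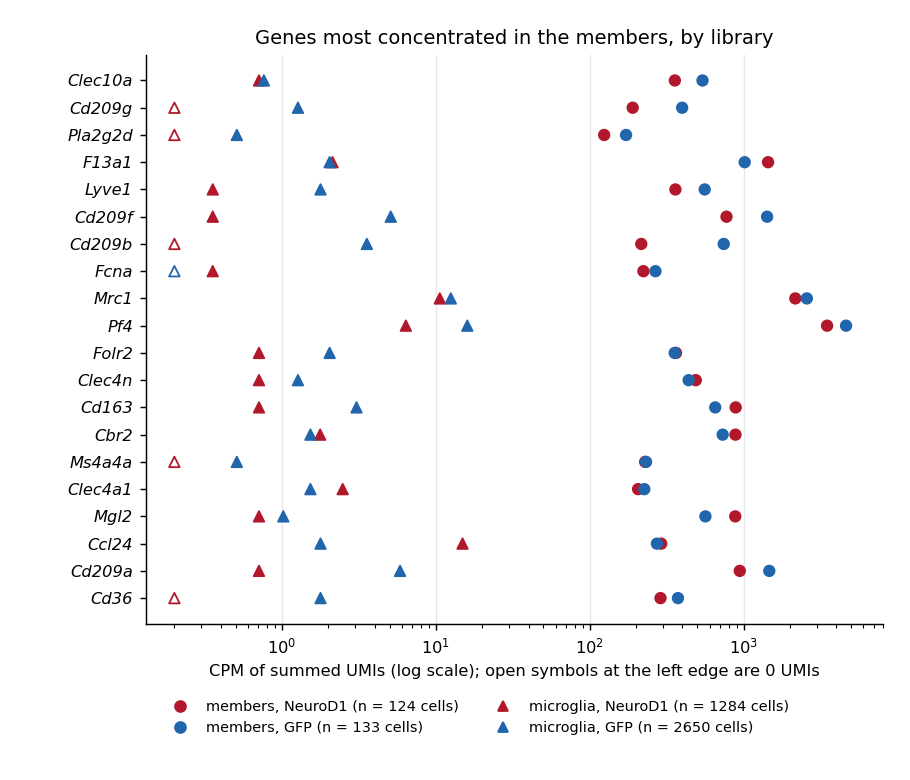
Summed level (CPM, log scale) of the 20 genes most concentrated in members, for members (circles) and comparison microglia (triangles) of the NeuroD1 (red) and GFP (blue) library; open symbols mark 0 UMIs. Members lie above 100 CPM for every gene and microglia at or below 16 CPM, and Cd209b shows the widest gap between the libraries' members (216 and 742 CPM).

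MHC class II divided the members more sharply than the libraries did. Cd74, the invariant chain that guides class II molecules, was at 9239 CPM in NeuroD1 and 6822 CPM in GFP members. H2-Aa, H2-Ab1 and H2-Eb1, the chains that display peptide, were at 1427, 1702 and 1211 CPM in NeuroD1 members and at 932, 896 and 968 CPM in GFP members. H2-DMa and H2-DMb1, which load the peptide, were at 98.2 and 141 CPM against 101 and 119 CPM. Ctss, the protease that trims the invariant chain, was at 2128 and 2612 CPM. No gene of the 7 measured differed by 2-fold, and the largest ratio was 1.9 (1.58 to 2.29) for H2-Ab1. Under the stricter exclusion H2-Ab1, H2-Aa and H2-Eb1 passed 2-fold, at log2 ratios of 1.44, 1.39 and 1.03. Without the class II-high members described below, the median of the list was -0.20 instead of 0.32, but over fewer genes. H2-Aa, H2-Ab1 and H2-Eb1 had too few UMIs there to be measured, so the value of -0.20 does not show a change of direction. MHC class I was near balance, with 0 of 12 genes past 2-fold: B2m was at 3568 and 3224 CPM, H2-K1 at 1038 and 1122 CPM and H2-D1 at 2829 and 3776 CPM.

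Promoters of class II genes share short elements, among them the Y box bound by NF-Y. The 8-letter form CTGATTGG, searched on both strands of the 300 bases around RefSeq gene starts (250 before, 50 after), was in 4 of 10 class II windows from the 9 of 12 listed genes found in the table, against 1346 of 32851 windows (4.1%) of all genes. The stretches of 2 class II genes with the motif, H2-Aa and H2-Eb1, are shown 5′ to 3′ on the gene's strand with that motif in capitals. They come from RefSeq on GRCm38.p6, whereas the deposited files name mm39. A match describes letters only, and binding was not measured.
H2-Aa, chr17:34287825-34287944, minus strand, motif 51 bases before the start: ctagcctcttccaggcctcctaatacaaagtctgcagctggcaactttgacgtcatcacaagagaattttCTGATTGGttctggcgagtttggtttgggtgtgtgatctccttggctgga
H2-Eb1, chr17:34305735-34305854, plus strand, motif 62 bases before the start: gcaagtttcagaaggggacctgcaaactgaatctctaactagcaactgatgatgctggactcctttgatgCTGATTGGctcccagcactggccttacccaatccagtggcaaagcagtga

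Class II RNA sat in a minority of members. The summed share of 9 class II genes (Cd74, H2-Aa, H2-Ab1, H2-Eb1, H2-Eb2, H2-DMa, H2-DMb1, H2-DMb2 and H2-Oa) had a median of 0.0541% of a member's UMIs in NeuroD1 and 0% in GFP members, and reached 22.5% and 19%. A cut at 1%, chosen after seeing these values, divided the members, and is a range of a score and not a cell type. It was met by 25 of 124 NeuroD1 members (20.2%, 13.5 to 28.3%) and 12 of 133 GFP members (9.02%, 4.75 to 15.2%), which held 92.9% and 95.1% of the class II UMIs. The share was 2.23-fold higher in the NeuroD1 library (1.08 to 4.88). Near the cut, 6 and 3 members had 0.5 to 1%, and 2 and 0 had 1 to 1.5%. With each member thinned to 500 UMIs, the number past the cut was again 25 and 12. At 4% or more, 15 and 11 members remained, so the extra NeuroD1 members lay mostly between 1% and 4%. Of microglia, 0 of 1284 in the NeuroD1 library (0 to 0.287%, with 3 cells making 0.234%) and 19 of 2650 in the GFP library (0.717%, 0.432 to 1.12%) passed the same cut.

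**Figure D2:**
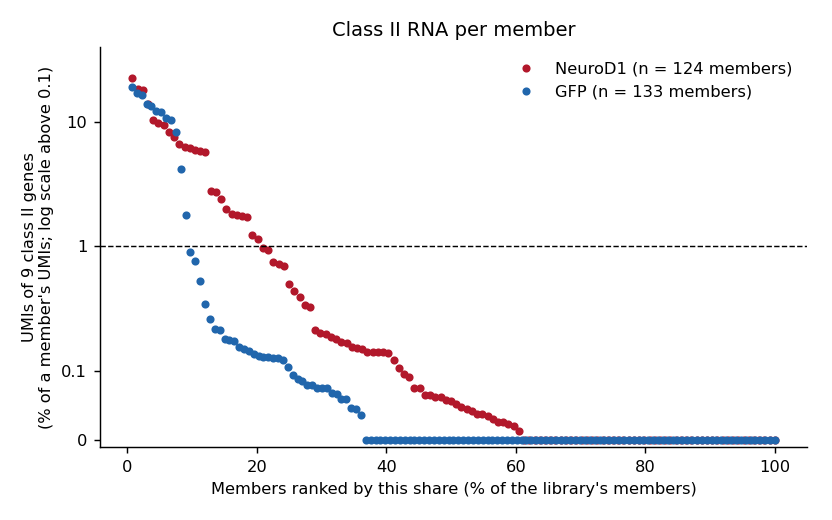
Share of 9 class II genes in each member's UMIs (%, log scale above 0.1), members ranked within their library, NeuroD1 in red and GFP in blue; the dashed line is the 1% cut. The NeuroD1 curve crosses the line at 20.2% of its members and the GFP curve at 9.02%, and 49 and 85 members have no class II UMI, a number that depends on depth.

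The class II-high members were lower in the genes of scavenging border macrophages, in both libraries. The cells were divided by class II RNA and chosen by some of these genes, so the values are a description. Cd163 was at 409 CPM in class II-high and 989 CPM in other NeuroD1 members, and at 71.9 and 705 CPM in the GFP library, where the first value is 1 UMI. Lyve1 was likewise at 168 and 401 CPM (NeuroD1) and at 288 and 582 CPM (GFP). Folr2 followed with 149 and 409 CPM, and 144 and 375 CPM. In the GFP library Lyve1 and Folr2 had 4 and 2 UMIs in class II-high members, and the intervals of their ratios included 1 (0.132 to 1.31 and 0.0453 to 1.45). In the NeuroD1 library the intervals of Mgl2 (0.551 to 1.12) and Cd209a (0.562 to 1.11) included 1. Cd209f was 2.59-fold lower in class II-high NeuroD1 members (1.6 to 4.44) and 7.08-fold lower in class II-high GFP members (2.39 to 34.6). Ms4a7 differed least, at 1582 and 1990 CPM and at 1798 and 2181 CPM.

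Among the genes looked at in this split, named after their values were seen, Cd52, Cd14 and Il1b were higher in the class II-high members of both libraries. Cd52, a small surface glycoprotein of leukocytes, was at 856 CPM in class II-high and 167 CPM in other NeuroD1 members, and at 1007 and 110 CPM in GFP members. Cd14, the co-receptor for lipopolysaccharide, was at 8096 and 3198 CPM and at 3164 and 1398 CPM. Il1b, the inflammatory cytokine interleukin 1 beta, was at 838 and 155 CPM in the NeuroD1 library, and had 8 UMIs in class II-high and 1 UMI in other GFP members. Ccl7, a chemokine that attracts monocytes, ran the other way, at 1173 and 2705 CPM and at 1007 and 3682 CPM.

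The markers counted here for other antigen-presenting cells were mostly scarce in the class II-high members. Of 8 dendritic cell genes, Flt3, Zbtb46, Clec9a, Itgax and Itgae had 0 UMIs in the 25 NeuroD1 cells, where Ccr7 had 3, Batf3 2 and Xcr1 1. All 8 had 0 in the 12 GFP cells. They were part of a list of 18, which also held Cd209a and Cst3. Cd209a was at 782 CPM in class II-high and 977 CPM in other NeuroD1 members, and at 0 and 1598 CPM in the GFP library. The 18 genes made up 0.959% and 0.974% of all members' UMIs, against 1.16% and 1.88% over all kept barcodes. Most of this was Cst3, at 8525 and 8199 CPM in members and at 11460 and 18629 CPM over all other barcodes. These shares therefore describe Cst3 and say little about dendritic cells. Of 7 B lymphocyte genes, Igkc had 18 UMIs in 1 NeuroD1 cell, and Ighm had 13 UMIs there against 63 in the other members. Mrc1, a gene of the rule, had a UMI in 21 of 25 and 9 of 12 class II-high members. The marker pattern given above, also built from the rule's genes, was met by 84% of class II-high and 97% of other NeuroD1 members and by 83.3% and 99.2% in the GFP library.

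**Figure D3:**
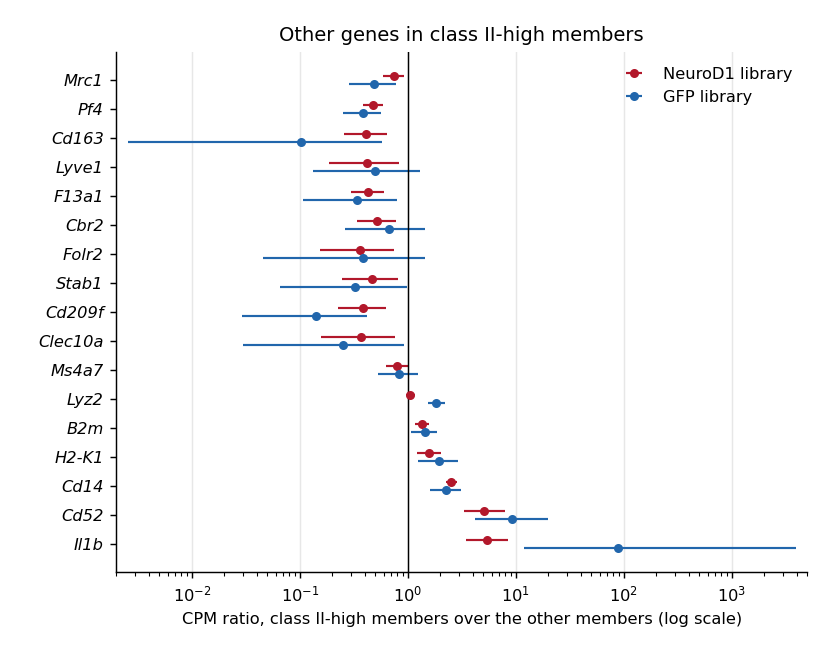
Ratio of CPM in class II-high members over the other members (log scale) with 95% counting intervals, NeuroD1 in red (25 and 99 members) and GFP in blue (12 and 121). The points of border macrophage genes from Mrc1 to Clec10a lie left of 1 in both libraries, and those of Cd14, Cd52 and Il1b lie to the right. The GFP intervals of Lyve1, Cbr2 and Folr2 include 1.

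Between the libraries, 3739 features reached 20 UMIs over both sets of members and were compared by their CPM ratio. Of these, 330 (8.83%) were higher by at least 2-fold in NeuroD1 members and 260 (6.95%) were lower by as much, with a median log2 ratio of -0.03. The balance depended on depth: with each member thinned to 500 UMIs, 59 were higher and 91 lower of 1026. In microglia, of 3691 features measured in both cell types, 353 (9.56%) were at least 2-fold higher and 342 (9.27%) lower, with a median of 0.21. List counts below are read against these shares, each cell type against its own, and the lists were not tested. Of 30 border macrophage genes outside the rule, 1 was higher and 1, Cd209b, lower by at least 2-fold, 3.33% each, with a median of -0.01. Stab1, Dab2 and Maf, a clearance receptor, an endocytic adaptor and a transcription factor, were at 507 and 629, 1454 and 1348, and 1355 and 1603 CPM.

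Chemokines parted in opposite directions. Ccl12, a mouse chemokine that binds CCR2, was at 1873 CPM (1722 to 2033) in NeuroD1 members and 8145 CPM (7720 to 8588) in GFP members, 4.35-fold lower (3.94 to 4.8). It was detected in 62 of 124 and 91 of 133 members, and at 500 UMIs each in 33.9% and 61.7%. In microglia it was at 1059 and 1419 CPM, 1.34-fold lower in the NeuroD1 library (1.28 to 1.4), and the difference between the cell types was not tested. Ccl2 and Ccl7, its neighbours in function, were at 773 and 1425 CPM and at 2436 and 3461 CPM in members. The log2 ratio of Ccl2 ran from -1.65 to -0.15 over the alternatives. In microglia both ran the other way, at 630 and 388 CPM and at 133 and 58 CPM.

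The same 3 chemokines were unevenly spread over members. Together they made up at least 1% of UMIs in 15 NeuroD1 and 50 GFP members, with medians of 0.141% and 0.611%. The 10 highest members held 58.3% and 48% of their UMIs, and 39 and 35 members had none. Of members with Ccl2, 21 of 29 and 25 of 31 also had Ccl7. Ccl12 was a gene of the members low in class II in the GFP library, at 2589 CPM in class II-high and 8645 CPM in other members. In the NeuroD1 library it was at 2457 and 1748 CPM.

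Cxcl2, which attracts neutrophils, was higher in NeuroD1 members, at 1133 CPM (1017 to 1259) against 374 CPM (287 to 479), 3.03-fold (2.31 to 4.03). It was detected in 55 and 20 members, and at 500 UMIs each in 30.6% and 10.5%. In microglia it was at 103 and 127 CPM. The related Cxcl1 did not follow, at 308 and 315 CPM. Ccl3 and Ccl4, which microglia hold at higher levels, were at 1460 and 819 CPM and at 1434 and 1300 CPM in members. Of 15 chemokines measured, Cxcl2 was at least 2-fold higher (6.67%) and Ccl12 and Ccl5 at least 2-fold lower (13.3%), with a median of -0.04. Ccl8, at 239 and 255 CPM, is a border macrophage chemokine that stayed below 2.5 CPM in microglia, with 0.709 and 2.29 CPM.

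Il1b, Cd14 and C5ar1 had higher CPM in NeuroD1 members, the latter 2 chosen from other lists after their values were seen. Il1b was at 275 CPM (219 to 340) in 22 NeuroD1 members and 53.4 CPM (24.4 to 101) in 3 GFP members, 5.15-fold (2.59 to 11.6). In microglia it was lower in the NeuroD1 library, at 60.7 and 177 CPM. Without the class II-high members the log2 ratio of Il1b was 4.01 instead of 2.29, but it rested on 39 NeuroD1 UMIs and 1 GFP UMI. Cd14 was at 4060 and 1544 CPM, 2.63-fold higher (2.3 to 3.02), and in microglia at 629 and 1839 CPM. C5ar1, the receptor of complement fragment C5a, was at 769 and 255 CPM, 3.01-fold higher (2.17 to 4.27), and in microglia at 177 and 34.6 CPM. Under the stricter exclusion of microglia the log2 ratio of C5ar1 fell short of 2-fold, at 0.89. A list of cytokines, their receptors and regulators of NF-kappaB had 20 genes measured. Of these, Il1b, Ifnar1, Tnfaip3 and Nfkbiz were at least 2-fold higher (20%) and Tnf at least 2-fold lower (5%), with a median of 0.27. Tnf rested on 12 and 14 UMIs. Nfkbiz, an inhibitor-like regulator of NF-kappaB, was at 442 and 142 CPM, and Nfkbia, the NF-kappaB inhibitor, at 2190 and 1360 CPM.

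**Figure D4:**
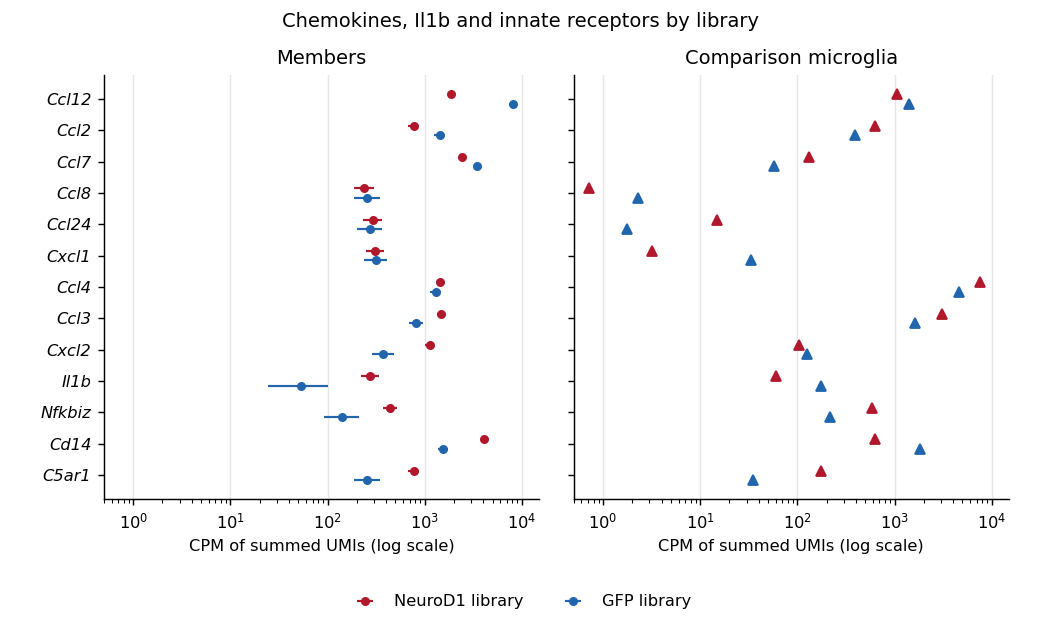
Summed level (CPM, log scale) of chemokines, Il1b, Nfkbiz and the receptors Cd14 and C5ar1 in members (left, with 95% Poisson intervals) and in comparison microglia (right, no intervals drawn), NeuroD1 in red and GFP in blue. In members Ccl12 is higher in the GFP library (8145 against 1873 CPM), and Cxcl2, Il1b, Cd14 and C5ar1 in the NeuroD1 library. In microglia, Cxcl2, Il1b and Cd14 are in the reverse order, Cxcl2 by the least (103 against 127 CPM).

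Immediate early genes are switched on by cells within minutes of a stimulus or of dissociation. A list of such genes and of stress genes, heat shock genes among them, was mostly higher in NeuroD1 members. Of 29 genes of this list measured, 8 were higher by at least 2-fold (27.6%) and 0 were lower by as much, with a median of 0.55. Btg2, an antiproliferative early gene, was at 1323 and 315 CPM, 4.2-fold higher (3.15 to 5.71). Fos and Fosb, subunits of AP-1, were at 1450 and 641 CPM and at 449 and 107 CPM, while Jun was at 4629 and 4067 CPM. In thinned members the log2 ratio of Fos was 0.94, just short of 2-fold. Atf3 and Zfp36, a stress factor and a regulator of cytokine mRNA, were at 1810 and 843 CPM and at 2652 and 1235 CPM. Klf2, a factor of quiescent cells, was at 1005 and 1401 CPM. In microglia 13 of the same 29 genes were at least 2-fold higher, against 9.56% of all features. Their median there was 0.89, so the shift was not limited to members. With members thinned to 500 UMIs the median in members was 0.35, and with the rule applied to 500 UMIs per barcode it was 0.52. Whether tissue handling had a part in the shift was not tested.

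Interferon-response genes were mostly lower in NeuroD1 members. Of 24 measured, 6 were at least 2-fold lower (25%) and Gbp2 was at least 2-fold higher (4.17%), with a median of -0.53. Ifit3, an antiviral RNA-binding protein, was at 68.8 CPM in 12 NeuroD1 members and 190 CPM in 21 GFP members, 2.76-fold lower (1.55 to 5.04). Ifit2 had 5 and 19 UMIs and Ifit3b 7 and 24, and near-identical Ifit3 copies could share reads. Ifit2 was at a log2 ratio of -0.53 under the stricter exclusion. Ifi27l2a and Bst2, which were better counted, were at 589 and 1152 CPM and at 796 and 1193 CPM. Irf7, a regulator of interferon genes, had 9 and 13 UMIs, Oas1a 11 and 17, and Ifi35 11 and 23. In microglia the median of these 24 genes was -2.01, and 17 were at least 2-fold lower, against 9.27% of all features.

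Genes that microglia raise around plaques showed no common direction in members. Of 19 measured, Fth1 was higher and Cd9 lower by at least 2-fold (5.26% each), with a median of 0.05. The same 19 genes had a median of -1.49 in microglia, where 15 were at least 2-fold lower, against 9.27% of all features. With the comparison cells chosen instead by C1qa, C1qb and C1qc, complement genes that macrophages also hold, that median was -1.41. For MHC class II the median of the comparison cells was -1.27 with the first choice and 0.70 with the choice by C1q genes, so its direction there is not settled. The choice by C1q genes was made after seeing the data. Apoe, the lipid carrier, was at 62514 and 51710 CPM in members and at 2505 and 20819 CPM in microglia. Lyz2 was at 9880 and 6548 CPM in members and at 279 and 1465 CPM in microglia, and Cd74 in microglia was at 112 and 795 CPM. Cathepsin B, from Ctsb, was at 7510 and 6163 CPM in members and at 3026 and 6847 CPM in microglia. Cst7, a cystatin that defines plaque-associated microglia, had 0 UMIs in NeuroD1 members and 8 UMIs in 8 GFP members, against 2.8% and 50.2% of microglia with a UMI. Clec7a and Axl, also of that state, were at 65.5 and 53.4 CPM and at 42.6 and 71.2 CPM in members, and at 10.6 and 194 CPM and 7.45 and 137 CPM in microglia. The difference between members and microglia was not tested.

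**Figure D5:**
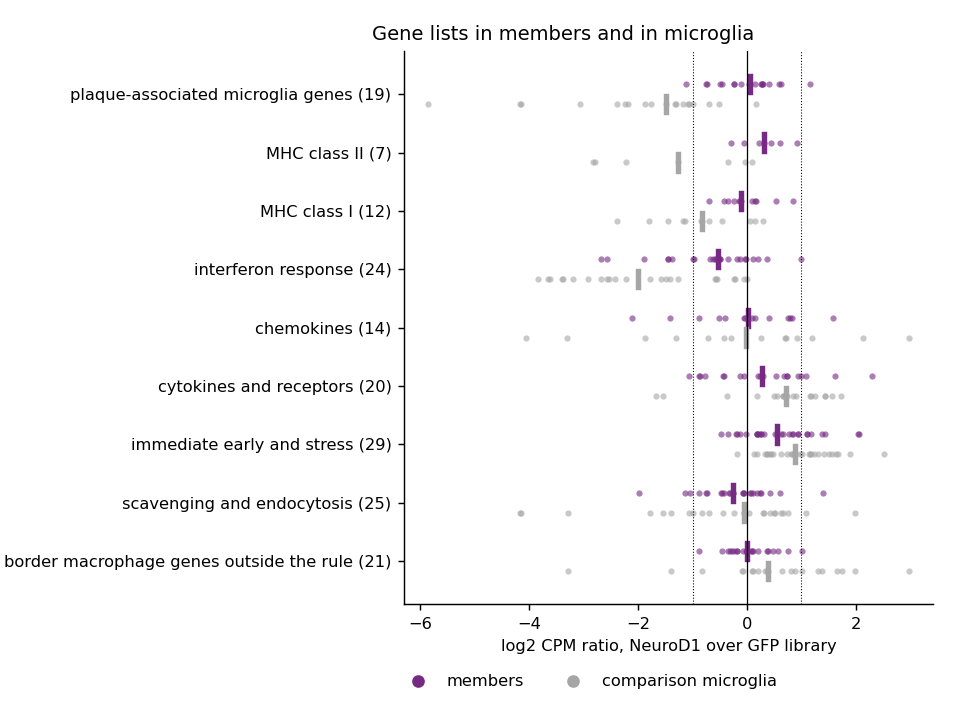
Log2 ratio of CPM between the NeuroD1 and GFP libraries for each gene (points) and list median (bars) in members (purple) and comparison microglia (grey); dotted lines mark 2-fold, and the number of genes measured in both stands in brackets. The medians of the plaque-associated list are 0.05 and -1.49, those of MHC class II 0.32 and -1.27 (0.70 with comparison cells chosen by C1q genes), and those of interferon response -0.53 and -2.01.

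Scavenging, iron and complement genes, which carry the housekeeping work of these cells, were near balance. Of 27 scavenging genes measured, Cd14 was at least 2-fold higher (3.7%) and Lrp1, Scarb2 and Ap2a2 at least 2-fold lower (11.1%), with a median of -0.25. Lrp1, a large endocytic receptor, was at 75.3 and 303 CPM, 4.02-fold lower (2.41 to 6.89), with 23 and 51 UMIs. The immunoglobulin receptors Fcgr3, Fcgr2b and Fcer1g were at 1470 and 1247, 1035 and 1081, and 2858 and 3010 CPM. The complement genes C1qa, C1qb and C1qc were at 2845 and 2826, 5644 and 4856, and 6053 and 6240 CPM. Fth1, the heavy chain of ferritin, was at 8581 and 3859 CPM, 2.22-fold higher (2.04 to 2.43), and in microglia at 4090 and 3633 CPM. Its log2 ratio was 0.86 under the stricter exclusion of microglia. Hmox1, which breaks down haem, and Slc40a1, the iron exporter, were at 321 and 273 CPM and at 295 and 404 CPM. Of 17 lipid genes, 0 were higher by at least 2-fold and 3 were lower (17.6%), with a median of -0.30.

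Among all genes, those with the ratios most clear of 1 by counting error were a mixed set. On the higher side, besides Btg2, Fosb, Il1b and Cxcl2, were Arid5a, Ptger4, Rap2b, Bambi, Bcl2a1d, Pim1, Rab7b and Nfil3. Ptger4, a receptor of prostaglandin E2, had 25 UMIs in 16 NeuroD1 members and 0 in GFP members. Arid5a, which stabilises inflammatory mRNAs, had 43 UMIs in 21 NeuroD1 members and 1 in GFP members. Pim1, a kinase induced by cytokines, was at 344 and 77.2 CPM and Rap2b, a small GTPase, at 282 and 41.6 CPM. Rab7b, of the endosomal GTPases, was at 115 and 11.9 CPM in members and at 0.709 and 47.1 CPM in microglia. Bcl2a1d had 30 and 1 UMIs, and near-identical copies of this survival gene make its count uncertain. With the rule applied to 500 UMIs per barcode its log2 ratio was 0.31.

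On the lower side, besides Ccl12, Cd209b, Ifit2 and Ifit3b, were Ftl2, Tagln, Rgs5, Ndufa4l2, P2ry14, Rrad, Acp5 and Ndufv1. Ftl2 had 16 and 189 UMIs, with a 53.8-fold gap in microglia, and its near-identical ferritin light chain copies make it uncertain. Tagln, Rgs5 and Ndufa4l2 are genes of pericytes and smooth muscle, and had 1 and 23, 8 and 52, and 2 and 20 UMIs. The 12 pericyte and smooth muscle genes listed made up 0.0111% of UMIs in NeuroD1 and 0.135% in GFP members, and at least 1% in 1 and 5 members. Leaving out members in which RNA of several other cell types together, among them astrocytes, oligodendrocytes and pericytes, made up 1% or more left 103 and 105 members. There the log2 ratio of Rgs5 was -1.01 instead of -3.49, and that of Ndufa4l2 -0.28 instead of -3.89. P2ry14, the receptor of UDP-glucose, had 2 and 18 UMIs, and Acp5, an acid phosphatase of osteoclasts and macrophages, 6 and 19. Under the stricter exclusion the log2 ratios of Acp5 and Rrad were both -0.77 and that of Tagln was -0.62.

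RNA of other cells was present in both libraries at different levels. Ttr, the transthyretin of the choroid plexus, was at 9727 CPM in NeuroD1 and 1734 CPM in GFP members, while the choroid plexus list took 13.6% and 2.46% of UMIs over all kept barcodes. The astrocyte list made up 0.444% and 0.387% of member UMIs and the oligodendrocyte list 0.511% and 0.642%. Neutrophil, T or NK lymphocyte and neuron lists each stayed at or below 0.0154% in both libraries. With free RNA subtracted by the Ttr level, 381 features were at least 2-fold higher and 324 lower. The log2 ratios of Ccl12, Cxcl2 and Cd14 kept their sign and 2-fold size under each of the 15 alternatives run, from -2.57 to -1.97, from 1.31 to 1.87 and from 1.19 to 1.56. The alternatives that changed only the minimum number of UMIs could not alter these ratios.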

How the data were processed

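Single-cell RNA was measured in 2 libraries, 1 per group. The files that the authors deposited give whole-number UMI counts for 53717 features, with names in separate files. Per the submitters' processing notes, the tools were STAR, featureCounts, fastp, cutadapt and FastQC and the build was mm39. Their versions and the gene annotation are not given in the sources consulted. Per the labels' protocols, cells were dissociated with papain and captured in a microwell chip, while another label field names a different platform, which was not settled.

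Barcodes with under 200 genes or over 20% mitochondrial UMIs, 131 and 104 of them, were removed. Totals were 51236521 (NeuroD1) and 17504950 (GFP) UMIs, with medians of 2599 and 1195 per kept barcode. Doublets were not removed; Scrublet marked 2 of 124 and 15 of 133 members, and removal was an alternative. Raw counts were summed over members per library and scaled to CPM. Intervals at 95% were exact Poisson for CPM, conditional binomial for ratios and Clopper-Pearson for shares, and were checked on simulated data. Log2 ratios have 0.5 UMI added to each sum. Called means a CPM ratio of at least 2 or at most 0.5 among features with at least 20 UMIs over both libraries. Comparison microglia had at least 0.5% and at least 3 UMIs of P2ry12, Tmem119, Siglech, Gpr34, Olfml3, Fcrls, P2ry13 and Sall1. Named were the rule's genes, genes of the lists, the 12 highest and 12 lowest ratios by the interval end nearest to 1 (a UMI in at least 5 members, and a level above that over all barcodes; without mitochondrial, ribosomal, haemoglobin, sex-linked and predicted genes), and the 20 genes most concentrated in members. Thinning drew 500 UMIs per cell and left out no member. Some genes of the lists are not reported here by name. The members and lists were chosen with earlier results of these data known. Alternatives covered filters, doublets, the rule, thinning, scaling, weighting of cells and free RNA. The software was scanpy 1.11.5, matplotlib 3.10.9, pandas 2.3.3, scipy 1.17.1 and numpy 2.4.6 under Python 3.11.15.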

Additional observations from a re-analysis of the deposited data

How the results depend on the processing

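With 1 library per group, animals, treatment and library cannot be separated, and the small number of members limits genes under about 50 UMIs. The alternatives gave 810 log2 ratios of 54 genes. Of these, 728 stayed within the interval of the value reported and 82 moved beyond it, with 0 changes of sign among those of the 54 that were called. The 728 include ratios that could not move: the alternatives with at least 50 UMIs and with no filter beyond 1 UMI change only which features are measured. Centring and the other CPM scaling shift every gene by the same small amount. Of 225 list medians, 220 stayed within a range set by the gene ratios of the same list. That range is wide for short lists, so this count says little about stability. For the 7 class II genes it was their full spread, so that 0.32 and -0.20 counted as the same. The value of -0.20 also leaves out H2-Aa, H2-Ab1 and H2-Eb1. The numbers of features at least 2-fold higher and lower were 47 and 91 with the rule applied to 500 UMIs per barcode, 59 and 91 with members thinned, 73 and 120 with the stricter microglia exclusion, 81 and 73 with at least 50 UMIs, and 3916 and 2887 with no filter beyond 1 UMI, where fewer or more features were measured (949, 1026, 1027, 1527 and 13913). The stricter exclusion, which left 33 and 69 members, also gave a member share ratio of 0.419, a median of -0.35 for border macrophage genes and 1.0 for MHC class II, and 81.8% macrophage-marked NeuroD1 members; the cause was not tested. That percentage was 86.8% with the rule on 500 UMIs and 99.1% with 0.5% and 5 UMIs of markers, where it was 100% in the GFP library. The class II-high share ratio ranged from 2.14 to 3.25. The subset marked only as monocytes (2 and 1 members) was too small for values and was not run. No paired analysis was possible because each group has 1 library.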

Other observations

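In the members low in class II, Cd74 differed between the libraries, and H2-Ab1, H2-Aa and H2-Eb1 were hardly counted. Cd74 was at 965 CPM in the 99 NeuroD1 members and 324 CPM in the 121 GFP members that fell under the 1% cut, a log2 ratio of 1.57. H2-Ab1 had 11 and 4 UMIs there, H2-Aa 10 and 2, and H2-Eb1 6 and 4. These low counts kept H2-Ab1, H2-Aa and H2-Eb1 out of the list median of -0.20. Whether the list as a whole followed Cd74 there is therefore not settled. Lyz2 was at 10311 CPM in class II-high and 9789 CPM in other NeuroD1 members, and at 11291 and 6122 CPM in the GFP library. Colec12, a scavenger collectin, had 1 UMI in class II-high and 49 in other NeuroD1 members, and 0 and 26 in the GFP library.

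Mgl2 and Clec10a, closely related lectins in the mouse, stood in opposite order between the libraries: Mgl2 was 1.56-fold higher in NeuroD1 members (1.23 to 1.99) and Clec10a 1.51-fold lower (1.13 to 2.02). Reads could be shared between these related genes. Runx1, a transcription factor of blood lineages, was at 134 and 53.4 CPM, with 41 and 9 UMIs and a log2 ratio of 0.31 with the rule on 500 UMIs per barcode, and Id3, an inhibitor of such factors, at 39.3 and 172 CPM, with 12 and 29 UMIs. Growth was hardly visible: of 25 cell cycle genes, 6 were measured, and Mki67 and Top2a did not reach 20 UMIs.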
